A study of Mus musculus with 10 samples.

Results

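Mouse hepatocytes taken in the middle of the dark phase, at zeitgeber time 18 (ZT18), were compared with hepatocytes taken in the middle of the light phase, at ZT6. Zeitgeber time counts hours from lights on. The comparison rests on 4 of the 10 libraries of the series, ZT6A, ZT6B, ZT18A and ZT18B, which hold 7324 of its 18378 cells. All UMIs (counts of distinct tagged RNA molecules) of the cells of a library were added up for each gene, so each library gave 1 value per gene and was 1 replicate. Of 14812 gene rows, 960 were left out of the account: 21 Mup rows (major urinary proteins), 27 rows with -ps in the name, 905 Gm-numbered rows and 7 more that the annotation marks as pseudogenes. The other 13852 rows are the members described here, and 8759 of them passed the filter on low values, a mean of at least 3 counts per 1000000 (CPM) over the 10 libraries.

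All groups came from C57BL/6 males aged 3 months that ate regular chow freely and carried no genetic change. The mice were anaesthetised with ketamine and xylazine, the livers were perfused with collagenase, and hepatocytes were purified on a Percoll gradient before 10x Chromium 3' (version 2) libraries were made. ZT6 and ZT18 had 2 libraries each, and ZT0 (lights on) and ZT12 had 3 each. No label gives the number of animals behind a library, so the p-values measure only the spread between these libraries, which may be technical.

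Mice are nocturnal and take most of their food in the dark. The liver follows this rhythm: the molecular clock, in which BMAL1 (gene Arntl) and CLOCK switch on their own repressors, runs in each hepatocyte, and feeding, body temperature and hormones act on the same cells. Fed hepatocytes turn glucose into fat and secrete proteins, whose folding needs chaperones in the cytosol and in the endoplasmic reticulum (ER), whereas in the resting phase they draw more on fat oxidation and gluconeogenesis.

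The 4 libraries held 2588441 to 4922234 UMIs from 1439 to 2420 cells, with 1633 to 1925 UMIs in the median cell. Their defining hepatocyte markers, 8 secreted proteins such as albumin, added up to 67453 to 88287 CPM, whereas the 8 macrophage markers added up to 0.269 to 4.27 CPM with 4 of the 8 at 0, and 6 of the 7 lymphocyte markers found in the files had no UMI. Endothelial markers came to 6.18 and 10.6 CPM at ZT6 and to 9.12 and 11.9 CPM at ZT18. Mitochondrially encoded genes took 15.90% and 15.96% of UMIs at ZT6 against 21.5% and 19.3% at ZT18. Haemoglobin rows held 3.66 and 2.32 CPM at ZT6, 8.80 CPM in ZT18A and 293 CPM in ZT18B. When the mitochondrial rows were removed before scaling, 151 of the 151 genes called higher below and 126 of the 128 called lower were called again, and with only the cells that had no haemoglobin UMI 145 and 126 of them were. Both ZT6 libraries carry index barcodes of one numbered set and both ZT18 libraries of another, so index set and time cannot be told apart. The ZT6 set also holds ZT0B and ZT12B.

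Between ZT6 and ZT18, 279 of the 8759 genes (3.19%) passed an adjusted p of 0.05 in edgeR's quasi-likelihood test, 151 of them (1.72%) higher and 128 (1.46%) lower at ZT18. The leading rises included the cytosolic chaperones Hsph1 and Hsp90aa1, the lipid enzyme gene Aacs and the serine protease inhibitor gene Serpina3c, and the leading falls were the clock genes Nr1d1 and Dbp and the metallothioneins Mt1 and Mt2. The median change was 2.97-fold among the genes that rose and 2.70-fold among those that fell, and 135 and 118 of them moved at least 2-fold. In all 279 the ZT6 and ZT18 libraries did not overlap. Over all 8759 genes, both ZT18 libraries lay above both ZT6 libraries in 24.5% and below them in 37.2%. The median log2 change over all genes was -0.01.

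The call of a single gene was fragile, and most calls were lost when 1 of the 4 libraries was left out. A fit of this kind has 1 library left at ZT6 or at ZT18, so part of the loss is set by the design. Leaving out 1 library at a time, 9 genes were called higher and 14 lower without ZT6A, 14 and 20 without ZT6B, 31 and 14 without ZT18A, and 22 and 11 without ZT18B. The calls of 5 rises, among them Hsp90aa1, Hsph1, Hspa4l and Rps12 (uncertain for its near-identical copies), and of 7 falls (Dbp, Nr1d1, Mt1, Mt2, Hamp2, Abcg8 and Isg15) held in all 4 of these fits, and those of 112 rises and 101 falls held in none. The 2 libraries of a time resembled each other more than those of the other times: Pearson's r of log2 CPM across genes, which are not independent replicates, was 0.985 within ZT6 and 0.986 within ZT18, against 0.933 to 0.958 within ZT0 and ZT12. A fit to the 4 libraries alone, whose spread is that of these close pairs, called 834 genes higher and 911 lower, among them 151 and 127 of the calls above. A lower level can come from fewer expressing cells or from fewer molecules per cell, and sums over cells cannot tell these apart.

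**Figure D1:**
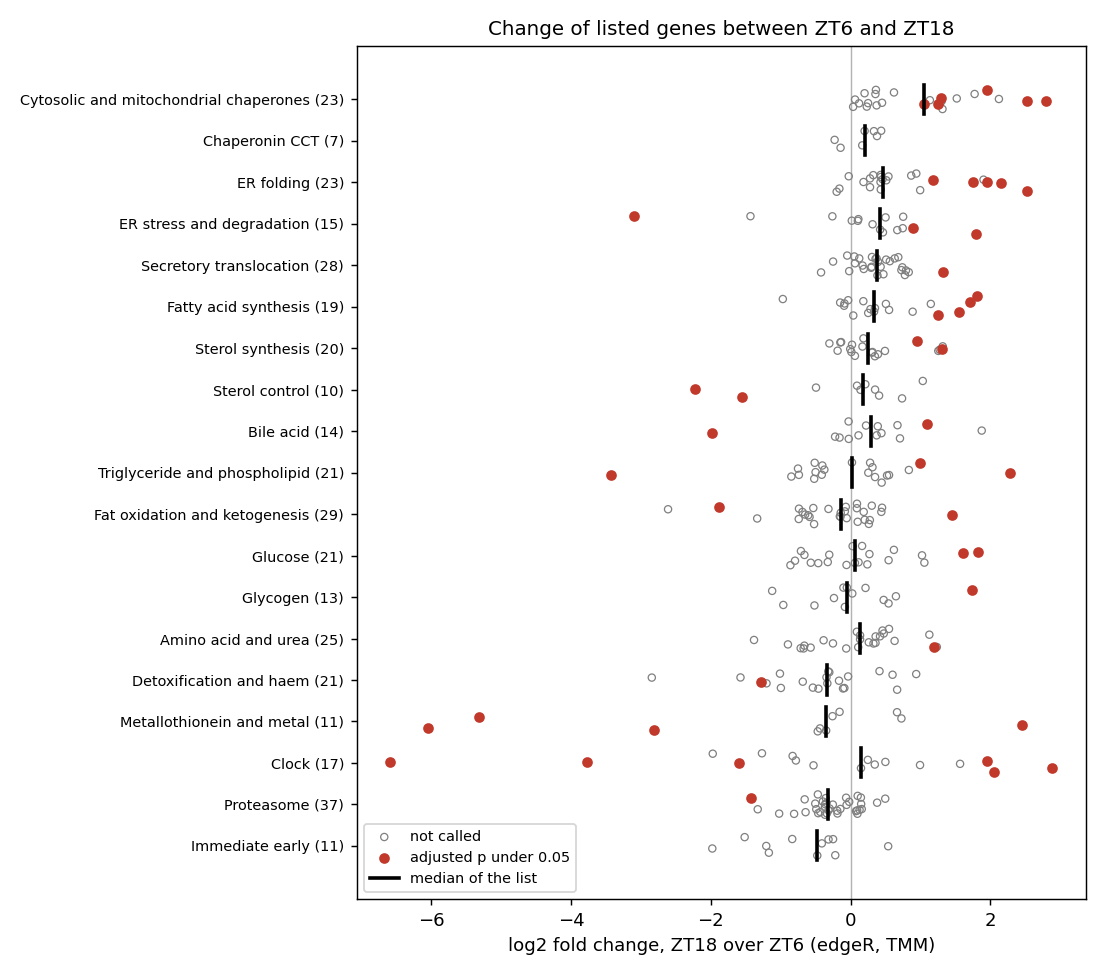
Fitted log2 fold change (x axis, ZT18 over ZT6) of the tested members of 19 gene lists (y axis, number of tested members in parentheses). Each point is 1 gene, filled where the adjusted p was under 0.05, and the black bar is the list's median. The medians of the cytosolic and mitochondrial chaperones (1.05) and ER folding genes (0.46) lie to the right of 0. The called clock and metal genes lie far out on both sides.

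Several chaperones of the cytosol were higher at ZT18. The list covers chaperones of the cytosol and of mitochondria. Of its 23 tested members, 6 rose (26.1%, against 1.72% of all genes) and none fell. Their median log2 change was 1.05 against -0.01 over all genes. Hsp90aa1, the inducible cytosolic Hsp90, was at 89.4 and 77.3 CPM in the ZT6 libraries and at 414 and 496 CPM in the ZT18 libraries, a rise of 2.53 ± 0.25 on the log2 scale (SE, edgeR's quasi-likelihood test, adjusted p = 0.000141). Both ZT18 libraries also stood above ZT0 (292 ± 42.4 CPM, SD, n = 3) and ZT12 (137 ± 16.4 CPM, SD, n = 3). Hsph1, the Hsp110 nucleotide exchange factor that works with Hsp70, held 16.9 and 11.2 CPM at ZT6 and 90.5 and 95.9 CPM at ZT18, a log2 rise of 2.79 ± 0.33 (edgeR adjusted p = 0.000329). Hspa4l, of the same Hsp110 family, went from 16.3 and 14.7 CPM to 55.6 and 57.4 CPM, a log2 rise of 1.94 ± 0.21 (edgeR adjusted p = 0.000194). These 3 are the members whose calls held whichever of the 4 libraries was left out.

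The other 3 called members were Dnaja1, Fkbp4 and Cacybp. Dnaja1, an Hsp40 co-chaperone, was at 150 and 133 CPM at ZT6 and at 354 and 305 CPM at ZT18, 2.46-fold higher. Fkbp4, the immunophilin that couples Hsp90 to steroid receptors, went from 96.3 and 84.6 CPM to 167 and 189 CPM, 2.08-fold higher. Cacybp, a protein that binds the ubiquitin ligase Siah1, went from 23.2 and 22.8 CPM to 50.9 and 52.8 CPM, 2.38-fold higher. Their edgeR adjusted p-values were 0.0424, 0.0297 and 0.0197, and each lost its call in every fit that left out 1 of the 4 libraries.

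Several well-known members did not pass. Hspa1b, an inducible Hsp70, was at 6.70 and 3.09 CPM at ZT6 and at 38.4 CPM in ZT18A but 5.39 CPM in ZT18B, and Dnajb1 was at 13.2 and 10.8 CPM against 41.8 CPM in ZT18A and 15.9 CPM in ZT18B. In both genes ZT18A alone stood high. Bag3, a co-chaperone of Hsp70, held 19.7 and 15.5 CPM at ZT6 and 58.8 and 37.7 CPM at ZT18 (edgeR adjusted p = 0.0767). The constitutive members did not pass: Hsp90ab1 had a log2 difference of 0.62 ± 0.32, Hspa8 of 0.36 ± 0.25 and the mitochondrial Hspd1 of 0.45 ± 0.24. Both ZT18 libraries lay above both ZT6 libraries in 17 of the 23, against 24.5% of all genes. Without ZT6A, ZT6B, ZT18A or ZT18B in turn, 3, 3, 4 and 3 members were called higher, and DESeq2 called 10. None of the 7 tested subunits of the cytosolic chaperonin CCT, which folds actin and tubulin, passed (median log2 difference 0.20).

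**Figure D2:**
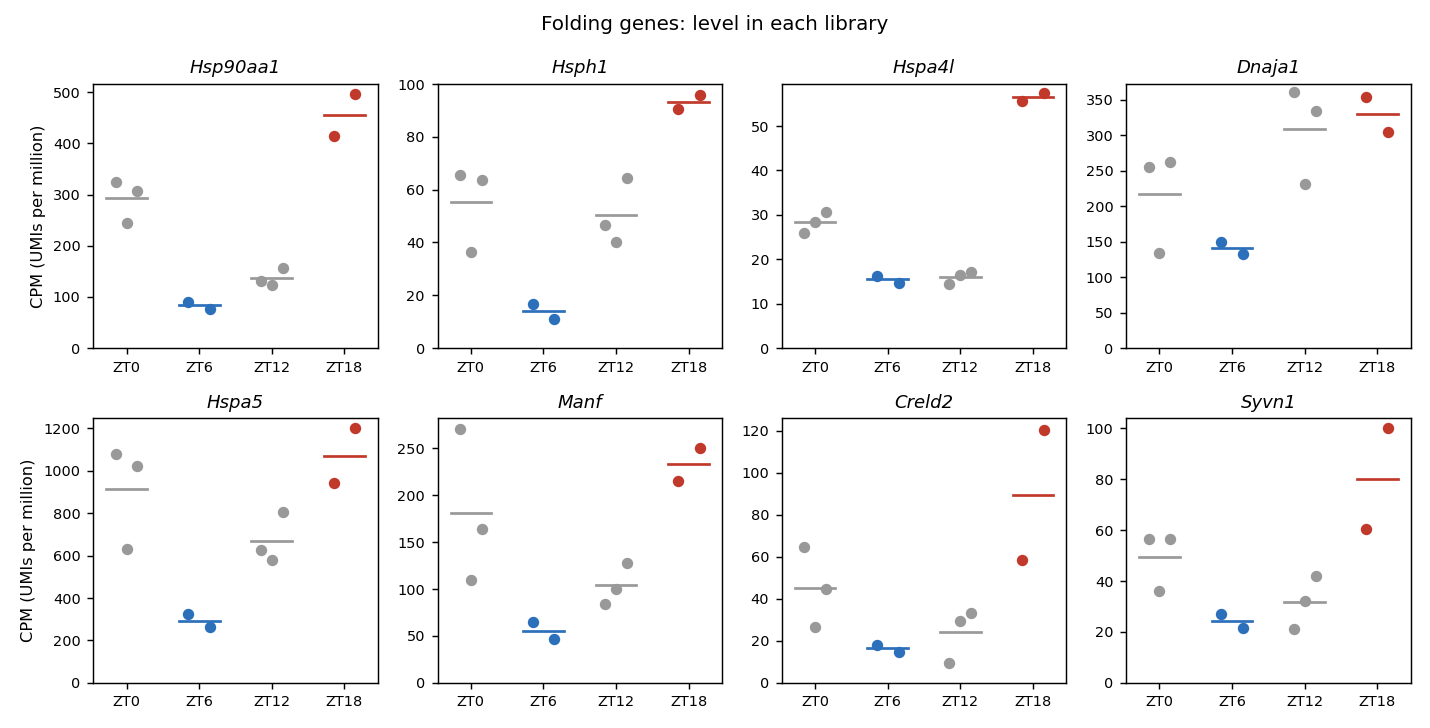
Level (CPM, y axis from 0) of 8 folding genes in each library by time of day (x axis); each point is a library, the bar is the mean, ZT6 is blue, ZT18 red and the other times grey. In every panel both ZT18 points lie above both ZT6 points. For Hsp90aa1, Hsph1, Hspa4l and Syvn1 they also lie above all ZT0 and ZT12 points, while Dnaja1 at ZT18 lies within the ZT12 range.

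Several genes that fold proteins in the ER were also higher at ZT18. Of 23 tested members 5 rose (21.7%, against 1.72% of all genes) and none fell, with a median log2 change of 0.46. Hspa5, which encodes BiP, the ER Hsp70, was at 323 and 263 CPM at ZT6 and at 941 and 1200 CPM at ZT18, a log2 rise of 1.95 ± 0.32 (edgeR adjusted p = 0.00495). Manf, a secreted ER stress factor, went from 64.4 and 46.7 CPM to 216 and 251 CPM, a log2 rise of 2.15 ± 0.38 (edgeR adjusted p = 0.00913). Creld2, another ER stress-inducible gene, went from 18.1 and 14.7 CPM to 58.5 and 120 CPM, a log2 rise of 2.53 ± 0.51 (edgeR adjusted p = 0.0181). The 2 ZT18 libraries differed most for Creld2, and both lay above ZT6; without ZT18B its log2 change was 1.89 and did not pass (edgeR adjusted p = 0.175).

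Sdf2l1 and Dnajb11, which form part of the BiP chaperone complex, rose as well. Sdf2l1 went from 24.6 and 14.3 CPM to 47.2 and 77.6 CPM, 3.36-fold higher, and Dnajb11 from 72.5 and 46.4 CPM to 115 and 140 CPM, 2.27-fold higher. Hsp90b1, the ER Hsp90, was at 489 and 428 CPM at ZT6 and at 664 and 1063 CPM at ZT18 without passing (edgeR adjusted p = 0.0787). Abundant oxidative folding and lectin chaperones differed by less than the test could call: P4hb (protein disulphide isomerase) by 0.28 ± 0.30, Calr (calreticulin) by 0.46 ± 0.31 and Canx (calnexin) by 0.43 ± 0.24 on the log2 scale. Without ZT18A 3 members were called higher, and without ZT6A, ZT6B or ZT18B none was. The sum of the list was 4210 and 3388 CPM at ZT6, 5369 and 6724 CPM at ZT18, and 5510 to 7344 CPM at ZT0, so the ZT18 values overlapped with those of ZT0.

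Of the 15 tested genes of ER stress signalling and ER-associated degradation, 2 rose and 1 fell, with a median log2 change of 0.42. These are 13.3% and 6.67%, against 1.72% and 1.46% of all genes. The risers belong to one ubiquitin ligase that clears misfolded ER proteins: its catalytic subunit Syvn1 (Hrd1) went from 27.2 and 21.6 CPM to 60.4 and 100 CPM, 3.46-fold higher (edgeR adjusted p = 0.0121), and its partner Sel1l from 98.9 and 89.6 CPM to 149 and 182 CPM, 1.85-fold higher (edgeR adjusted p = 0.0352). Trib3, a pseudokinase induced by the stress factors ATF4 and CHOP, fell from 13.2 and 7.73 CPM to 0.943 and 1.35 CPM (log2 change -3.09 ± 0.73, edgeR adjusted p = 0.0338). Syvn1 kept its call in 1 of the 4 fits without a library and Sel1l and Trib3 in 0. The transcription factor Xbp1, at 182 and 204 CPM against 231 and 287 CPM, did not pass.

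The ER stress response element is a known motif of genes induced by ER stress: a CCAAT box, a gap of fixed length and CCACG, bound by NF-Y and by ATF6 or XBP1. It was sought as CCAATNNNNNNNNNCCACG on both strands in RefSeq promoters of build GRCm38.p6, which run from 250 bases before to 50 bases after the start site. It occurred in 39 of 32851 promoters (0.119%) and in 14 of the 6857 tested genes with a promoter entry (0.204%). Among genes with an entry it occurred in 7 of 18 ER folding genes, in 2 of 13 ER stress and degradation genes and in 0 of 17 cytosolic and mitochondrial chaperones. Of the called genes with an entry, it occurred in 2 of 4 ER folding genes and in 1 of 3 ER stress and degradation genes. The called genes Dnajb11, Sdf2l1, Sel1l and Trib3 had an entry without a match. The 3 called genes that hold it are shown because their promoters carry the match behind those counts; each sequence is the 250 bases before the start site, 5′ to 3′ on the gene's strand, with the element in capitals.
Hspa5, chr2:34771840-34772089, plus strand: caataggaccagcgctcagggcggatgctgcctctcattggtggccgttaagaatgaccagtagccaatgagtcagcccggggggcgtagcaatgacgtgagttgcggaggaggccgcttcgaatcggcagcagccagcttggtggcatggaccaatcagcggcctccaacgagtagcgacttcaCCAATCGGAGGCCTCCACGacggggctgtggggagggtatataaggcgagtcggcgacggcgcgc
Creld2, chr15:88819396-88819645, plus strand (the element lies on the opposite strand and reads as its reverse complement): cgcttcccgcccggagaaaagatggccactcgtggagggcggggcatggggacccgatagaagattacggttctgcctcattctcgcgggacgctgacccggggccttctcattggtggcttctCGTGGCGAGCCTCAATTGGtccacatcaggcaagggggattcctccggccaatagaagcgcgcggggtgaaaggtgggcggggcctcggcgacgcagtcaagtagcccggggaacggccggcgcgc
Syvn1, chr19:6046326-6046575, plus strand: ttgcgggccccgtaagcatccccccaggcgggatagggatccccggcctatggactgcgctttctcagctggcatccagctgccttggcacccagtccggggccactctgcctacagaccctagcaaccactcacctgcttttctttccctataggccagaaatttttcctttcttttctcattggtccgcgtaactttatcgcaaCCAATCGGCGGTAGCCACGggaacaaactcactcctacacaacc
The element ended 46 bases before the start site in Hspa5, 107 in Creld2 and 25 in Syvn1. A match is a description of the letters and not a measured binding site.

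Across the 14 tested genes with the element, 3 rose (Hspa5, Creld2 and Syvn1), none fell, and the median log2 change was 0.70, against 114 rises, 101 falls and a median of -0.02 over the 6857. Both ZT18 libraries lay above both ZT6 libraries in 9 of the 14, against 1643 of the 6857, among them Hsp90b1, Dnajc3, Calr and Canx, which did not pass. For 9 of the 14 the gene also stands in an ER list, so the 2 descriptions share members. The heat shock element, sought as GAANNTTCNNGAA on both strands, occurred in 0.603% of promoters and in 4 of the 17 cytosolic and mitochondrial chaperones with an entry (Hsph1, Hspd1, Hspe1 and Chordc1), of which Hsph1 rose.

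Secretory translocation and vesicle transport, the steps before and after folding, had 28 tested genes, of which 1 rose (3.57%, against 1.72% of all genes). It was Sec23b, a coat protein of vesicles that leave the ER, which went from 23.0 and 22.0 CPM to 56.3 and 50.1 CPM (2.49-fold, edgeR adjusted p = 0.0288). In 18 of the 28 both ZT18 libraries lay above both ZT6 libraries, against 24.5% of all genes, and the median log2 change was 0.38. Of the pair of cold-inducible RNA-binding protein genes, Cirbp fell from 18.5 and 19.3 CPM to 4.09 and 4.04 CPM, 4.37-fold lower (edgeR adjusted p = 0.0187), whereas Rbm3 was at 35.6 and 37.1 CPM against 39.6 and 31.5 CPM with overlapping libraries. The calls of Sec23b and Cirbp were lost in each fit without 1 of the 4 libraries.

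Of the 19 tested genes of fatty acid synthesis and its control, 4 rose at ZT18 (21.1%, against 1.72% of all genes) and none fell (median log2 change 0.33). The 4 are 2 enzymes, Acly and Fasn, and the regulators Thrsp and Mid1ip1. Fasn, fatty acid synthase, was at 226 and 175 CPM at ZT6 and at 731 and 509 CPM at ZT18, a log2 rise of 1.71 ± 0.34 (edgeR adjusted p = 0.0149), with 356 ± 133 CPM at ZT0 and 289 ± 50.7 CPM at ZT12 (SD, n = 3). The highest ZT0 library, at 509 CPM, equalled ZT18B. Acly, which makes cytosolic acetyl-CoA from citrate, went from 234 and 217 CPM to 592 and 425 CPM, 2.37-fold higher (edgeR adjusted p = 0.0365), and its ZT0 libraries, at 383 to 601 CPM, overlapped with ZT18. Thrsp (Spot14), which promotes lipogenesis, went from 393 and 474 CPM to 1769 and 1126 CPM, 3.50-fold higher (edgeR adjusted p = 0.0371). The ZT12 libraries of Thrsp, at 904 to 2177 CPM, overlapped with those of ZT18. Mid1ip1, its homologue and an activator of acetyl-CoA carboxylase, went from 42.1 and 22.0 CPM to 108 and 71.9 CPM, 2.93-fold higher (edgeR adjusted p = 0.0370).

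In each of these 4 genes ZT18A held more than ZT18B, and both lay above ZT6. The abundant desaturation and elongation genes did not pass. Scd1, the stearoyl-CoA desaturase, was at 4803 and 6205 CPM at ZT6 and at 6248 and 4029 CPM at ZT18, so the groups overlapped. The 2 acetyl-CoA carboxylase genes, which make the committed substrate malonyl-CoA, did not pass either: Acaca had a log2 difference of 0.50 ± 0.35 and Acacb of 0.28 ± 0.40. Elovl5, a polyunsaturated fatty acid elongase, was at 572 and 602 CPM against 349 and 222 CPM (log2 difference -0.97 ± 0.27, edgeR adjusted p = 0.0655). Without ZT18B 1 member of the list was called higher, and without ZT6A, ZT6B or ZT18A none was.

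Among the largest rises outside the lists was Aacs, acetoacetyl-CoA synthetase, which returns ketone body carbon to lipid synthesis. It was at 9.35 and 17.4 CPM at ZT6 and at 109 and 125 CPM at ZT18, a log2 rise of 3.24 ± 0.48 (edgeR adjusted p = 0.00225), and stood at 37.0 ± 18.6 CPM at ZT0 and 51.5 ± 9.68 CPM at ZT12 (SD, n = 3). ZT6 was the lowest and ZT18 the highest of the 4 times. Without ZT6A its adjusted p was 0.0705, and in the other 3 fits without a library it stayed under 0.05.

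Sterol synthesis rose at 2 of 20 tested genes (10%, against 1.72% of all genes) and fell at none (median log2 change 0.24). Sqle, squalene epoxidase, went from 33.7 and 26.7 CPM to 72.3 and 70.1 CPM, 2.48-fold higher (edgeR adjusted p = 0.0234), and Idi1, isopentenyl diphosphate isomerase, from 91.2 and 95.04 CPM to 185 and 158 CPM, 1.93-fold higher (edgeR adjusted p = 0.0450). Of the 10 tested genes of sterol sensing, uptake and export, 2 fell (20%, against 1.46% of all genes) and none rose. The 2 were Abcg5 and Abcg8, which pair to form the transporter that pumps cholesterol into bile. Abcg8 was at 66.2 and 56.0 CPM at ZT6 and at 14.5 and 10.5 CPM at ZT18, 4.66-fold lower (edgeR adjusted p = 0.00109), and its call held in all 4 fits without a library. Abcg5 was at 41.7 and 37.1 CPM against 10.7 and 14.6 CPM, 2.94-fold lower (edgeR adjusted p = 0.00295), and its call was lost without ZT18A (edgeR adjusted p = 0.0703) and held in the other 3. Insig1, which holds back the sterol-sensing factor SREBP in the ER, was at 278 and 280 CPM against 518 and 564 CPM but did not pass (edgeR adjusted p = 0.142).

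Lipid storage and phospholipid genes split. Of 21 tested members 2 rose and 1 fell (9.52% and 4.76%, against 1.72% and 1.46% of all genes), with a median log2 change of 0.02. Chka, choline kinase of the phosphatidylcholine pathway, went from 24.2 and 19.3 CPM to 114 and 86.8 CPM, a log2 rise of 2.27 ± 0.38 (edgeR adjusted p = 0.00616), and the ZT0 libraries, at 170 ± 61.5 CPM (SD, n = 3), overlapped with those of ZT18. Plin5, a lipid droplet coat protein, went from 12.6 and 14.7 CPM to 22.6 and 28.3 CPM, 1.99-fold higher (edgeR adjusted p = 0.0430). Its mean at ZT12 was higher, at 34.5 ± 4.07 CPM (SD, n = 3). Lpl, lipoprotein lipase, was at 33.1 and 37.5 CPM at ZT6 and at 4.09 and 2.16 CPM at ZT18, a log2 change of -3.43 ± 0.69 (edgeR adjusted p = 0.0172). Adult hepatocytes are not the main source of Lpl in the body. The summed macrophage markers were at 4.27 and 1.16 CPM at ZT6 and at 0.629 and 0.269 CPM at ZT18, and their part in the Lpl change was not tested.

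Of 29 tested genes of fat oxidation and ketogenesis 1 rose and 1 fell (median log2 change -0.14). This is 3.45% each, against 1.72% and 1.46% of all genes. Ehhadh, the peroxisomal bifunctional enzyme, went from 76.8 and 56.0 CPM to 192 and 153 CPM, 2.73-fold higher (edgeR adjusted p = 0.0337), and Cyp4a10, an omega-hydroxylase and target of PPAR-alpha, from 144 and 302 CPM to 52.2 and 63.3 CPM, 3.69-fold lower (edgeR adjusted p = 0.0338). Without ZT6B the log2 change of Cyp4a10 was -1.19 and did not pass. Of 14 tested bile acid genes 1 rose and 1 fell (7.14% each, against 1.72% and 1.46% of all genes). Baat, which conjugates bile acids to taurine or glycine, rose from 116 and 100 CPM to 208 and 228 CPM (2.13-fold, edgeR adjusted p = 0.0194). Nr0b2, the repressor SHP induced by the bile acid receptor, fell from 67.7 and 37.5 CPM to 11.9 and 13.2 CPM (3.95-fold, edgeR adjusted p = 0.0208). Cyp7a1, the rate-limiting enzyme of bile acid synthesis, overlapped between the times, with 47.3 and 71.1 CPM at ZT6 and 55.6 and 122 CPM at ZT18.

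Among the glucose and glycogen genes, a regulator of glycolysis and a regulator of glycogen rose. Pfkfb1, the liver enzyme that makes and breaks fructose 2,6-bisphosphate, went from 4.06 and 6.95 CPM to 18.9 and 16.7 CPM, a log2 rise of 1.83 ± 0.34 (edgeR adjusted p = 0.0105). Ppp1r3b, the subunit that targets protein phosphatase 1 to glycogen, rose from 11.4 and 8.89 CPM to 39.6 and 25.3 CPM, 3.33-fold (edgeR adjusted p = 0.0303). Its means at ZT0 (55.0 ± 11.8 CPM) and ZT12 (51.7 ± 21.9 CPM, SD, n = 3) were higher than that at ZT18. Pfkfb1 was 1 of the 2 called of 21 tested glucose genes (9.52%), and Ppp1r3b the 1 called of 13 tested glycogen genes (7.69%). Over all genes 1.72% were called higher.

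Pck1, the gluconeogenic PEP carboxykinase, missed the threshold at 1881 and 1386 CPM against 1034 and 748 CPM (edgeR adjusted p = 0.180), although its libraries did not overlap between the times. Of 25 tested amino acid and urea cycle genes 1 rose (4%, against 1.72% of all genes) and no other passed. It was Arg1, the arginase that releases urea, which went from 516 and 535 CPM to 1223 and 1054 CPM (2.28-fold, edgeR adjusted p = 0.0288). Of the called genes in these metabolic lists, Fasn, Chka, Nr0b2, Cyp4a10 and Pfkfb1 each kept the call in 1 of the 4 fits without a library, and Acly, Thrsp, Mid1ip1, Idi1, Sqle, Plin5, Lpl, Ehhadh, Baat, Ppp1r3b and Arg1 in 0.

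**Figure D3:**
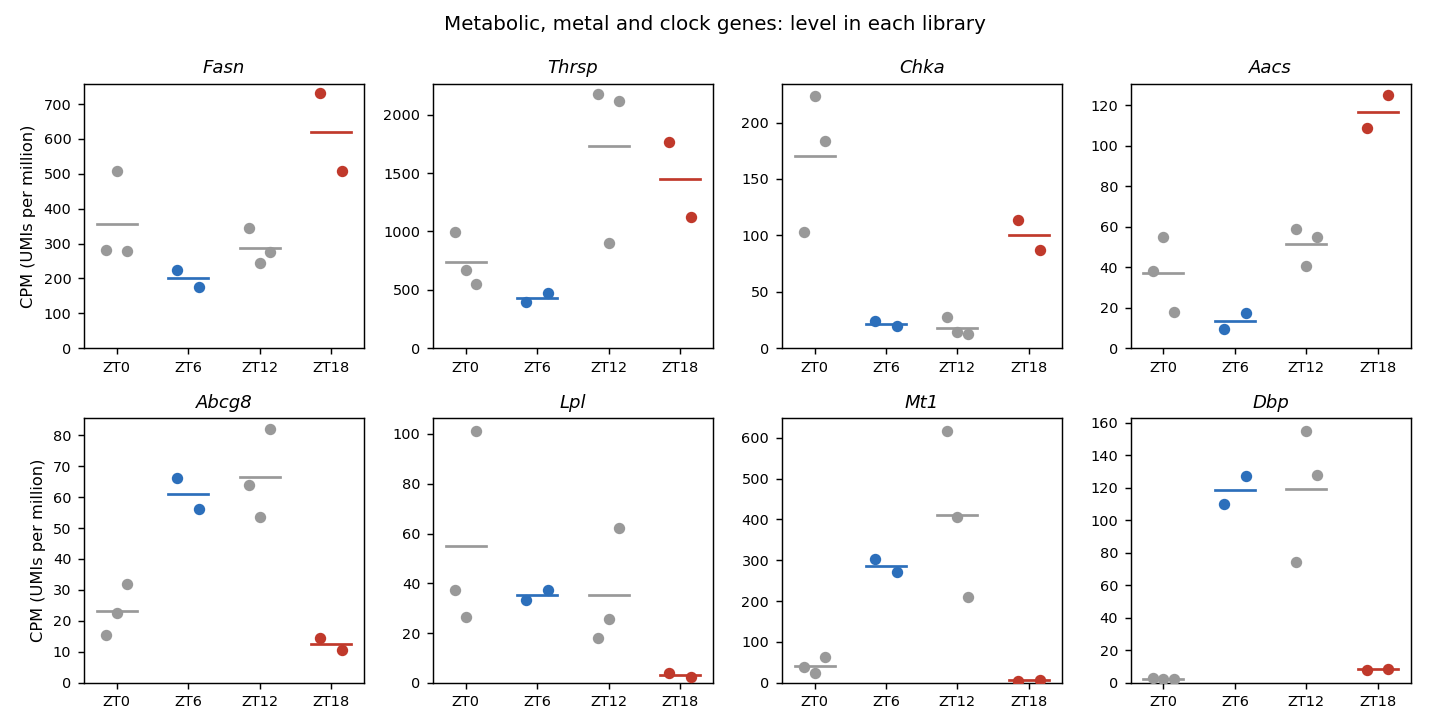
Level (CPM, y axis from 0) of 8 metabolic, metal and clock genes in each library by time of day (x axis), drawn as in the plot of folding genes. Fasn, Chka, Thrsp and Aacs are higher at ZT18 than at ZT6 in every library, and Abcg8, Lpl, Mt1 and Dbp are lower; for Aacs both ZT18 points lie above every other point.

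Metal-binding genes held the largest falls outside the clock. Of 11 tested members of the metal list 3 fell and 1 rose (27.3% and 9.09%, against 1.46% and 1.72% of all genes). Mt1, a metallothionein that binds zinc and copper, was at 302 and 270 CPM at ZT6 and at 5.34 and 8.08 CPM at ZT18, a log2 change of -5.32 ± 0.57 (edgeR adjusted p = 0.000194). Its relative Mt2 had 414 UMIs in the ZT6 libraries and 5 in the ZT18 libraries, that is 76.0 times as many per UMI sequenced (exact 95% bounds 32.3 and 235, counting error only; edgeR adjusted p = 0.00135). Both genes were low at ZT0 too, at 42.2 ± 18.8 CPM and 8.33 ± 6.72 CPM, and high at ZT12, at 411 ± 203 CPM and 98.5 ± 49.2 CPM (SD, n = 3). Without ZT18B the log2 change of Mt2 was -7.20 instead of -6.05.

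The iron genes moved in both directions. Hamp2, a hepcidin-like peptide gene, fell from 228 and 320 CPM to 35.2 and 39.3 CPM (log2 change -2.81 ± 0.40, edgeR adjusted p = 0.00167). Hamp, hepcidin itself, the hormone that closes the iron exporter ferroportin, was at 461 and 524 CPM against 382 and 296 CPM and did not pass. Hamp and Hamp2 are close copies, and how reads shared by such copies were counted is not given in the sources used here. Tfrc, the transferrin receptor, rose from 5.69 and 11.2 CPM to 54.7 and 29.4 CPM, 5.44-fold (edgeR adjusted p = 0.0146). The ZT12 libraries of Tfrc, at 46.6 ± 15.2 CPM (SD, n = 3), overlapped with those of ZT18. Tfrc kept its call without ZT6B or ZT18B but lost it without ZT6A or ZT18A (log2 change 1.92 and 1.95).

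The clock genes, whose phases in liver are well known, serve as a check of the labelled times. Of 17 tested members 3 rose and 3 fell (17.6% each, against 1.72% and 1.46% of all genes). Nr1d1 (REV-ERB alpha), the repressor that peaks in the light, had 259 UMIs at ZT6 and 2 at ZT18, that is 119 times as many per UMI sequenced (exact 95% bounds 32.6 and 986, counting error only; edgeR adjusted p = 0.000221). Dbp, a clock-driven bZIP activator, fell from 110 and 127 CPM to 7.86 and 8.62 CPM, 13.6-fold (edgeR adjusted p = 7.38e-05), and Nr1d2 from 57.5 and 59.9 CPM to 20.8 and 16.2 CPM, 3.02-fold (edgeR adjusted p = 0.00285). Arntl (BMAL1), the activator that REV-ERBs repress, rose from 2.24 and 1.55 CPM to 15.7 and 12.1 CPM (log2 rise 2.89 ± 0.49, edgeR adjusted p = 0.00684).

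The repressor Cry1 rose from 9.14 and 5.79 CPM to 32.1 and 28.3 CPM (4.14-fold, edgeR adjusted p = 0.0140). Dbp and Nr1d1 kept their calls in all 4 fits without a library, Nr1d2 in all but that without ZT18B (edgeR adjusted p = 0.0793), Arntl in the 2 without a ZT18 library and Cry1 in 0. Tef, a relative of Dbp, was at 69.9 and 59.9 CPM against 39.3 and 32.3 CPM (edgeR adjusted p = 0.0811). Bhlhe40, Rora and Hlf had log2 differences of 0.25, 0.34 and 0.15 and did not pass.

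The lists of receptors and signals held 1 called gene or none each. The 1 fall was 4.76% of the tested detoxification and haem genes, against 1.46% of all genes. The 1 rise was 11.1% of the tested glucocorticoid-induced genes, against 1.72% of all genes. Nr1i3 (CAR), a xenobiotic receptor that switches on drug-metabolising enzymes, fell from 81.3 and 96.2 CPM to 36.2 and 33.1 CPM (2.43-fold, edgeR adjusted p = 0.0350) and was the 1 called of 21 tested detoxification and haem genes, 14 of which had both ZT18 libraries below both ZT6 libraries, against 37.2% of all genes. Cdkn1a, the cell cycle inhibitor p21, rose from 1.22 and 0.386 CPM to 15.4 and 5.39 CPM (log2 rise 3.53 ± 0.64, edgeR adjusted p = 0.0104), the 1 called of 9 tested glucocorticoid-induced genes; without ZT6A the log2 change was 4.65 and without ZT18A 2.64, neither passing. None of 14 tested insulin and growth hormone signal genes passed, and Igfbp1, an insulin-repressed gene, was at 326 and 304 CPM against 146 CPM in ZT18A and 389 CPM in ZT18B. No immediate early gene, of 11 tested, passed, although 9 of the 11 had both ZT18 libraries below both ZT6 libraries, against 37.2% of all genes; such genes are known to respond to cell isolation, and their summed level was 1065 and 984 CPM at ZT6 and 579 and 664 CPM at ZT18. The part of isolation in the changes above was not tested.

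Zonation landmarks, genes that mark a hepatocyte's place between the portal and central veins, held no call. Of 8 pericentral landmarks 6 had both ZT18 libraries below both ZT6 libraries, against 37.2% of all genes (median log2 difference -0.63), and of 8 periportal landmarks 5 had both above, against 24.5% (0.38). Their sums were 7823 and 9035 CPM at ZT6 against 7085 and 7590 CPM at ZT18 for the pericentral list, and 3479 and 3066 CPM against 4616 and 3870 CPM for the periportal list. The part of zonal make-up in the changes above was not tested. Sox9 is a marker of bile duct cells and of hepatocytes next to them. It rose from 4.06 and 0.773 CPM to 17.3 and 11.3 CPM (log2 rise 2.44 ± 0.55, edgeR adjusted p = 0.0265). Of the bile duct markers, 4 were found in the files, Sox9 among them. Their sum was 4.27 and 0.773 CPM at ZT6 and 17.3 and 11.6 CPM at ZT18. Of these markers 1, Krt19, had no UMI in the 4 libraries. The part of bile duct cells in the Sox9 rise was not tested. The Sox9 value at ZT6B rests on 2 UMIs, its call was lost in each fit without 1 of the 4 libraries, and without ZT6A its log2 change was 4.17.

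Of 37 tested proteasome subunits 1 fell (2.70%, against 1.46% of all genes). It was Psmb8, an interferon-inducible immunoproteasome subunit, which went from 53.4 and 33.2 CPM to 17.9 and 12.9 CPM (2.68-fold, edgeR adjusted p = 0.0146). In 23 of the 37 both ZT18 libraries lay below both ZT6 libraries, against 37.2% of all genes. In 2 both lay above, against 24.5%. None of 79 tested nuclear respiratory chain genes passed (median log2 difference -0.12). In 44 of them both ZT18 libraries lay below both ZT6 libraries, and in 9 both lay above, against 37.2% and 24.5% of all genes. Of the 13 tested mitochondrially encoded genes 1 fell (7.69%, against 1.46% of all genes) and none rose. It was mt-Nd4l, which went from 866 and 965 CPM to 353 and 288 CPM (edgeR adjusted p = 0.0148). In 8 of the 13 both ZT18 libraries lay above both ZT6 libraries, against 24.5% of all genes. In 3 both lay below, against 37.2%, and the list's median log2 difference was 0.33. Of 81 tested ribosomal protein genes, 44 had both ZT18 libraries below both ZT6 libraries and 14 had both above. Over all genes these shares were 37.2% and 24.5%. In this list 4 rose (4.94%, against 1.72% of all genes): Rps12 (log2 rise 3.20), Rpl27 (2.57), Rpl10 (2.32) and Fau (2.06). These 4, and the rise of Eno1b from 2.64 and 2.32 CPM to 22.0 and 20.5 CPM beside the parent gene Eno1 at 64.0 and 64.5 CPM against 44.0 and 30.7 CPM, are uncertain, because their reads can be shared with near-identical copies. Rps12 was at 91.2 and 89.7 CPM in the ZT18 libraries and at 5.50 to 18.6 CPM in the other 8. The pseudogene and Gm-numbered rows left out of the account took 0.490% and 0.511% of UMIs at ZT6 and 0.934% and 0.926% at ZT18, and 0.329% to 0.388% at ZT0 and ZT12. Whether the libraries of all times were counted in the same way is not given in the sources used here, so for such copies counting and time cannot be told apart.

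Of the other leading rises, Serpina3c went from 12.4 and 5.41 CPM to 156 and 145 CPM (log2 rise 4.10 ± 0.72, edgeR adjusted p = 0.00796), with 56.2 ± 45.0 CPM at ZT0 and 33.0 ± 22.9 CPM at ZT12 (SD, n = 3). Cyp3a41b, a cytochrome P450, went from 2.44 and 0.773 CPM to 27.0 and 18.9 CPM (log2 rise 3.73 ± 0.62, edgeR adjusted p = 0.00578), and Cml5, an N-acetyltransferase-like gene, from 2.23 and 5.41 CPM to 26.4 and 26.9 CPM (8.01-fold, edgeR adjusted p = 0.0146). All 3 belong to families of similar copies, so reads may be split between them. Without ZT6A the log2 changes were 4.81 for Serpina3c, 4.86 for Cyp3a41b and 2.32 for Cml5, none passing, and without ZT6B that of Cml5 was 3.69. The haemoglobin genes Hba-a1, Hba-a2 and Hbb-bs were also called higher, but ZT18B held 61.2, 60.4 and 142 CPM of them against 1.57, 0.629 and 5.66 CPM in ZT18A, so 1 library set these rises.

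Among the leading falls outside the lists, Zfp771, a zinc finger gene, was at 22.4 and 21.2 CPM against 2.51 and 2.96 CPM (7.44-fold lower), and Pigt, a subunit of the enzyme that attaches GPI anchors, at 35.4 and 24.3 CPM against 8.17 and 2.96 CPM (5.20-fold lower). Slc8b1, the mitochondrial sodium-calcium exchanger, was at 43.1 and 31.7 CPM against 8.80 and 8.08 CPM, and Tcp11l2 at 30.7 and 24.7 CPM against 6.29 and 7.01 CPM. The edgeR adjusted p-values of these falls were 0.0404, 0.0350, 0.0198 and 0.00991. Without ZT18A the log2 change of Pigt was -3.23 and did not pass. In each gene both ZT18 libraries lay below both ZT6 libraries, and the ZT0 and ZT12 means lay between.

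The other 2 times served to ask whether the change from ZT6 to ZT18 differed from that between ZT0 and ZT12, which are also 12 h apart and share no library with it. Between ZT0 and ZT12 themselves 302 genes (3.45%) passed. By edgeR's quasi-likelihood test of the difference of the 2 changes, 540 of the 8759 genes (6.17%) differed, 282 with a more positive and 258 with a more negative change from ZT6 to ZT18. The change from ZT6 to ZT18 enters this test, so index set and time cannot be told apart in it either. Of the 279 genes called between ZT6 and ZT18, 200 differed: 111 that rose and 89 that fell. These genes were selected for 1 of the 2 changes compared, so a high share is built in, and this count and the next ones are descriptions only. Of the genes that rose, 127 of 151 had their highest mean of the 4 times at ZT18 and 120 their lowest at ZT6; of those that fell, 96 of 128 had their highest mean at ZT6 and 115 their lowest at ZT18. Without 1 of the 4 libraries at a time, 186 to 217 genes differed, and with the replicate letter as a block 883 did.

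**Figure D4:**
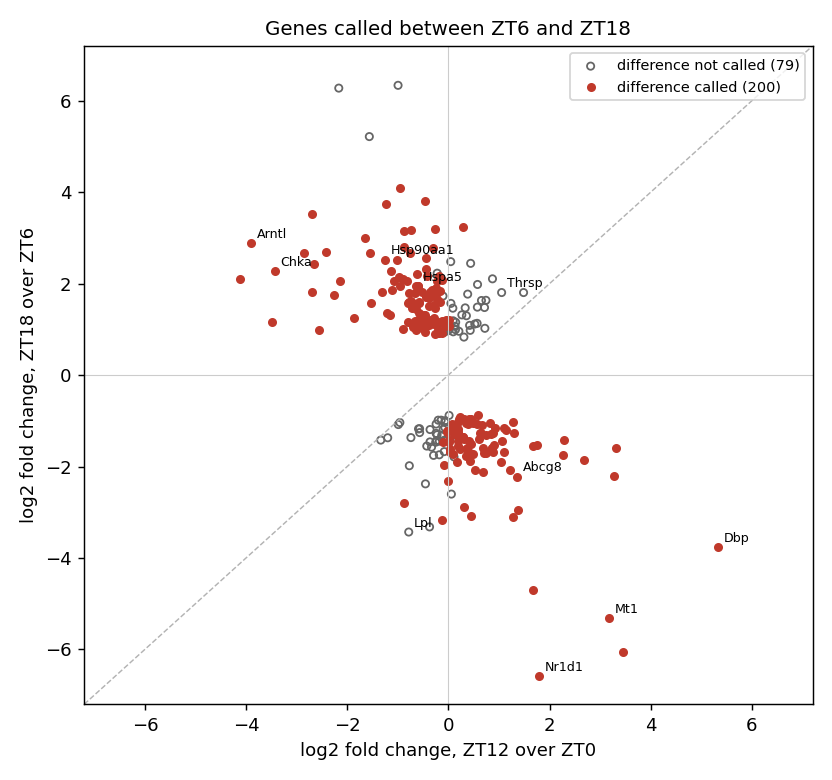
Log2 fold change of the 279 called genes from ZT6 to ZT18 (y axis) against that from ZT0 to ZT12 (x axis), 1 point per gene; the dashed line marks equal changes. Filled points are the 200 genes whose 2 changes differed at an adjusted p under 0.05, and open points the 79 not shown to differ. Arntl lies at the upper left and Dbp and Mt1 at the lower right; the genes were selected for the change on the y axis, which sets their distance from its 0.

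Folding genes were among those that differed. Hsp90aa1 changed by 2.53 from ZT6 to ZT18 and by -1.25 from ZT0 to ZT12, a difference of 3.77 ± 0.32 (edgeR adjusted p = 2.53e-05). Hspa5 changed by 1.95 and -0.60 (difference 2.55 ± 0.40, edgeR adjusted p = 0.00197). Counted over the lists, 8 of 23 cytosolic and mitochondrial chaperones and 8 of 23 ER folding genes differed, against 6.17% of all genes.

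In the metabolic lists 4 of 19 fatty acid synthesis genes and 5 of 20 sterol synthesis genes differed, against 6.17% of all genes. Fasn changed by 1.71 from ZT6 to ZT18 and by -0.45 from ZT0 to ZT12 (difference 2.16 ± 0.43, edgeR adjusted p = 0.00868). Thrsp, by contrast, changed by 1.81 and by 1.05, and the 2 changes were not shown to differ (difference 0.75 ± 0.55, edgeR adjusted p = 0.480). Pck1, not called between ZT6 and ZT18, changed by -0.80 and by 1.58 (difference -2.37 ± 0.41, edgeR adjusted p = 0.00376).

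Among genes with at least 20 CPM in their highest group, the widest differences were those of Serpina3c (5.05), Cyp3a41b (4.97), Arntl (6.78), Chka (5.70) and Sox9 (5.10) on the positive side, all on the log2 scale. Cdkn1a, whose highest group mean was 19.4 CPM at ZT0, lay under that limit and had a difference of 6.23 (edgeR adjusted p = 0.00032). On the negative side stood Nr1d1, Mt2, Mt1, Dbp and Rgs16. Dbp had a difference of -9.10 ± 0.47 (edgeR adjusted p = 2.44e-07), since it was at 2.67 ± 0.253 CPM at ZT0 and 119 ± 41.1 CPM at ZT12 (SD, n = 3). Rgs16, a regulator of G protein signalling, was at 26.0 and 29.4 CPM at ZT6 and 6.29 and 1.62 CPM at ZT18, which did not pass (edgeR adjusted p = 0.0920), and its difference from the other change was -6.65 ± 1.06 (edgeR adjusted p = 0.00216).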

How the data were processed

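Each library's deposited table holds UMI counts per gene and cell, whole numbers with no normalization by the authors. Per the submitters' processing notes, Cell Ranger was used and the builds mm10 and hg19 are named; the Cell Ranger version, the treatment of reads shared by near-identical genes and the filter on cells are not given in the sources used here. Cells held 1048 to 10001 UMIs and 8.70% to 34.4% mitochondrial UMIs, and all were used, doublets included. The tables number their cells, so barcodes shared between libraries were not counted here. Row names matched GENCODE M21 symbols for 14321 of 14812 rows. Counts were summed per library and tested with edgeR 4.0.16 (quasi-likelihood, TMM, mean of at least 3 CPM over 10 libraries, 1 mean per time); p-values were adjusted by Benjamini-Hochberg over all 8908 rows that passed, threshold 0.05. All 10 libraries gave the estimate of spread. CPM as printed are UMIs per 1000000 of the library's total, and folds are TMM-scaled. No 2 libraries of a time were copies (chi-square of their counts 5.30 to 63.6 per degree of freedom). Confidence intervals on counts and floors (3 counts) cover counting error only.

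Members and lists were chosen with earlier results of these data known. Genes were named by rule: the 12 largest rises and falls with at least 20 CPM in the higher group, the called members of each list with up to 4 of the most abundant others, and the 5 widest differences of differences on each side among genes with at least 20 CPM in their highest group. Bag3, Hspa1b, Dnajb1, Cyp7a1 and a few other members were named beyond it, after their values were seen. A few genes that the rule names are not reported here. Promoters came from RefSeq; of the called genes, those with the ER element are shown, and Syvn1, from the second ER list, was added after the search. On counts simulated for the 8908 rows of the ZT18 against ZT6 comparison, 86% of 100 genes changed by 2 on the log2 scale and 15% of 100 changed by 1 were called, with 5 false calls. The simulated libraries were drawn independently around 1 mean per gene, whereas the real ZT0 and ZT12 libraries deviate together. These rates therefore hold for that setting and do not give the error of the real fit. Alternatives used DESeq2 1.42.0 and limma 3.58.1, other scalings, filters, cells and left-out libraries.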

Additional observations from a re-analysis of the deposited data

How the results depend on the processing

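Counts of genes higher and lower at ZT18, and of genes whose change differed from that between ZT0 and ZT12, were 151, 128 and 540. They stayed within 1.5 times of these under DESeq2 (171, 140 and 556), limma-voom, RLE size factors, library size alone, removal of Mup and pseudogene rows or of mitochondrial rows, retention of unannotated Gm rows, cells without haemoglobin UMIs, and cells without the top 5% of UMI totals. Library size alone moved the median of all genes to -0.09 and the share of calls that were higher from 54.1% to 44.7%. With a mean of at least 20 CPM the counts were 92, 77 and 338, and with no filter 254 and 244. With only the 4 libraries of ZT6 and ZT18 they were 834 and 911; fewer libraries gave the spread. Leaving out 1 library at a time gave 9 to 215 higher, 11 to 212 lower and 186 to 576 that differed; the low ends came from the ZT6 and ZT18 libraries, and the 215 and 212 came without ZT0A.

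With the replicate letter as a block the counts were 328, 323 and 883. Deviations of the 13 same-letter pairs of libraries correlated at -0.112 to 0.597 over 4274 genes, so the letters were not taken as pairs across all times. The 3 same-letter pairs of ZT0 and ZT12 correlated at 0.291 (A), 0.447 (B) and 0.597 (C) and their different-letter pairs below 0, while ZT6 and ZT18 correlated at 0.116. The difference of the 2 changes and the shared spread therefore rest on an unpaired fit of libraries that deviate together at ZT0 and ZT12. ZT0B and ZT12B share a numbered index set with both ZT6 libraries, and ZT0C and ZT12C share another. For these pairs letter and index set cannot be told apart. Of 66 called genes named by the rule, 61 kept the call under DESeq2, 60 under limma-voom and 60 under library size alone. Most lost it in each fit that left out 1 of the 4 libraries. None of the 66 reversed its direction in a fit that held it. Some named genes that were not called did change sign, such as Igfbp1, whose log2 difference was -0.15 in the main fit and 0.40 without ZT18A. Depth limits low genes: 3 UMIs stand for 0.609 to 1.16 CPM in these libraries.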

Other observations

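Outside the lists, some called genes stand out by role; they were picked after their values were seen and were not tested as groups. Ulk1, the kinase that starts autophagy, was at 74.4 and 51.0 CPM at ZT6 and at 23.3 and 16.4 CPM at ZT18 (3.01-fold lower, edgeR adjusted p = 0.00698). Gabarapl1, an ATG8-family protein of the autophagosome membrane, fell from 392.3 and 325 CPM to 147 and 124 CPM (2.52-fold, edgeR adjusted p = 0.0441), and Fam134b, a receptor for autophagy of the ER, from 106 and 126 CPM to 38.0 and 43.4 CPM (2.70-fold, edgeR adjusted p = 0.0462). Ulk1 kept its call in 2 of the 4 fits without a library, and Gabarapl1 and Fam134b in 0.

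Odc1, ornithine decarboxylase of polyamine synthesis, rose from 58.9 and 52.9 CPM to 150 and 158 CPM (2.90-fold, edgeR adjusted p = 0.0187), and Srm, spermidine synthase, from 18.5 and 16.2 CPM to 45.6 and 46.9 CPM (2.80-fold, edgeR adjusted p = 0.0145). Slc7a2, an arginine transporter, fell from 306 and 295 CPM to 96.8 and 100 CPM (2.89-fold, edgeR adjusted p = 0.0105). Each of these 3 calls was lost in every fit without 1 of the 4 libraries. Isg15, an interferon-induced ubiquitin-like protein, fell from 13.0 and 18.2 CPM to 1.26 and 1.89 CPM (9.01-fold, edgeR adjusted p = 0.000691), a call that held in all 4, and its conjugating enzyme gene Ube2l6 fell from 51.6 and 41.7 CPM to 18.2 and 21.6 CPM (2.22-fold, edgeR adjusted p = 0.0198), a call that held in none. At ZT0 and ZT12 Isg15 stood at 12.8 ± 1.58 and 13.4 ± 3.21 CPM (SD, n = 3), so ZT18 was the low time.

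Of the 149 rows that were tested but left out of the account, 58 were called higher and 1 lower at ZT18. Of the kept genes tested, 1.72% were called higher and 1.46% lower. Mup rows made up 10 of the 58 and 21 of the 149, and took 1.45% and 1.67% of UMIs at ZT6 against 2.93% and 2.73% at ZT18.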
